A study of Rattus norvegicus with 16 samples.

Results

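The intermediate filament genes described here are Krt8, Krt18, Des, Vim, Nes, Synm and Lmna, which encode keratin 8, keratin 18, desmin, vimentin, nestin, synemin and lamin A/C. They are 7 of the 17147 genes in the deposited table. All 7 passed the filter for low counts and so stood among the 11658 genes tested. Krt8 and Krt18 passed it only through libraries taken after injury, so they could show a rise from 0 days but hardly a fall. The genes were picked by symbol from the measured changes of these same libraries, so their levels and fold changes are given as a description, with standard errors and without p-values. Transcripts were measured by RNA sequencing in the supraspinatus, a muscle of the rotator cuff, of Sprague Dawley rats. Control libraries, called 0 days, came from muscle that was not operated on. The other libraries came from rats in which both supraspinatus muscles had been torn through their full thickness and the suprascapular nerve, which supplies them, had been resected (neurectomy), and were taken 10, 30 or 60 days later. Each of the 4 groups holds 4 libraries. The labels give neither age nor sex, name no sham operation and do not separate the tear from the nerve injury, so the effects of surgery, tear and denervation cannot be told apart. The labels also do not say which libraries came from separate rats. Each title holds a number that no other title repeats and a letter, L or R, and their meaning is not stated. The errors and p-values below therefore measure the spread between libraries.

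Intermediate filaments are rope-like polymers that give cells and nuclei mechanical strength. Keratins assemble only as pairs of 1 acidic and 1 basic chain, and Krt18 and Krt8 encode such a pair, best known from simple epithelia and reported at low levels in striated muscle. Desmin is the main filament of the mature muscle fibre and links Z-discs to each other, to the cell membrane and to organelles. Synemin copolymerises with desmin or vimentin and ties filaments to the costamere, the membrane attachment site of the contractile apparatus. Vimentin marks mesenchymal cells and immature muscle cells. Nestin marks immature and regenerating fibres, and in adult muscle it is retained near neuromuscular and myotendinous junctions. Lamin A/C forms the meshwork under the inner nuclear membrane.

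Stretches of the promoters of 3 of the genes are printed. These are the keratin pair, nearly absent from control muscle and high after injury, and desmin, abundant throughout. The sequences are from RefSeq on the rat assembly GRCr8, read 5′ to 3′ on the strand of the gene. The deposited counts were made on the build rn5, per the submitters' processing notes, so these coordinates are not those used for counting. Krt8 (chr7:135010420-135010589, minus strand) is shown from 250 to 81 bases before its annotated start, Krt18 (chr7:135035988-135036157, plus strand) from 180 to 11 bases before, and Des (chr9:84299456-84299625, plus strand) from 170 to 1 bases before. Capitals mark matches to the TATA box (TATAA), the GC box (GGGCGG) and the E-box (CANNTG), searched on both strands.
Krt8: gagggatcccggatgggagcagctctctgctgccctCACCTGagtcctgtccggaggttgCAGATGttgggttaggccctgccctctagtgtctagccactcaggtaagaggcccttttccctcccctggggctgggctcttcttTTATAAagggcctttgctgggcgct
Krt18: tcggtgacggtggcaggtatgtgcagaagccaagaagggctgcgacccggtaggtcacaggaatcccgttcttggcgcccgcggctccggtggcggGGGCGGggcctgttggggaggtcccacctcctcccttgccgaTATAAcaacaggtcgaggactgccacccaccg
Des: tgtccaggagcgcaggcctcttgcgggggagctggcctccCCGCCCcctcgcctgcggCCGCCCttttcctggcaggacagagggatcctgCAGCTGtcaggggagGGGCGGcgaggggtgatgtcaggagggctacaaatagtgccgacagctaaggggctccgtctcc
Within 250 bases before the start, Krt8 held TATAA at positions -104 to -100, which overlaps a match on the other strand at -105 to -101. It also held E-boxes at -214 to -209, at -190 to -185 and, outside the printed stretch, at -63 to -58. Krt18 held TATAA at -42 to -38 and a GC box at -84 to -79. Des held 3 GC boxes, at -130 to -125, -112 to -107 and -64 to -59, and an E-box at -79 to -74. Of 33469 rat promoter windows of the same length, 24.0% held TATAA, 30.5% the GC box and 65.5% the E-box. The AP-1 letters TGANTCA, found in 6.34% of windows, and the STAT letters TTCNNNGAA, found in 7.67%, matched none of the 7 promoters. The MCAT letters CATTCC, found in 12.1% of windows, matched that of Lmna. These matches describe letters in a window and do not show that a factor binds there.

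Library totals ran from 17.2 to 39.9 M fragments, and all 4 libraries at 60 days, at 17.2 to 22.4 M, were smaller than every other library. Levels are in CPM, a gene's fragments for each 1 M of its library after scaling by the trimmed mean of M values (TMM), and were not corrected for transcript length, so they are compared between libraries and not between genes. A level of 3 fragments, taken as the floor of detection, was 0.0712 to 0.175 CPM on this scale. TMM factors were 0.750 to 0.775 at 0 days and 1.18 to 1.24 at 10 days. Scaling by library totals alone moved the median log2 fold change of all tested genes against controls up by 0.66, 0.49 and 0.41 for the 10-, 30- and 60-day groups, and the fold changes below are relative to the TMM baseline unless stated. The summed level of 12 mature fibre genes, such as Acta1 and Ckm, was at least 71601 CPM in each library, so all libraries carried skeletal muscle. These genes do not tell the supraspinatus from other muscles.

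Krt8 and Krt18 were close to the floor in control muscle and were far higher after injury. In bulk tissue, here and for every gene below, a change in the number of cells of a type and a change in RNA per cell cannot be told apart. Keratin 8, the basic chain of the pair, was at 0.281, 0.330, 0.401 and 0.670 CPM in replicates 1 to 4 at 0 days, from 5, 9, 9 and 14 fragments. At 10 days its level was 7.89, 40.8, 13.6 and 16.5 CPM, and replicate 2 stood far above the other libraries of that group. At 30 days it was 20.3, 12.3, 8.60 and 12.3 CPM, and at 60 days 4.29, 3.20, 2.34 and 3.02 CPM. Every injured library lay above every control library, and the 60-day libraries lay between the controls and both earlier injured groups without overlap. The ranges at 10 and 30 days overlapped. Mean levels were 0.421 CPM ± 0.174 (SD, n = 4), 19.7 ± 14.5, 13.4 ± 4.95 and 3.21 ± 0.808 in the order of time. Against 0 days the log2 fold change was 5.53 ± 0.55 (SE), 4.98 ± 0.56 and 2.93 ± 0.61 for the 10-, 30- and 60-day groups. Without replicate 2 of the 10-day group the first of these was 4.90. From 30 to 60 days the log2 fold change was -2.05 ± 0.43.

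Krt18, the acidic partner, had only 2, 1, 3 and 3 fragments in the control libraries, or 0.112, 0.0367, 0.134 and 0.144 CPM, at or below the floor in each library. At 10 days it was at 6.67, 28.5, 15.3 and 16.5 CPM, and replicate 2 was again the highest. At 30 days it was at 46.9, 19.1, 10.8 and 18.5 CPM, where replicate 1 was the highest of all 16 libraries. At 60 days it was at 11.6, 5.78, 1.34 and 5.69 CPM, from 252, 103, 23 and 128 fragments. All 12 injured libraries lay above the controls, while the injured groups overlapped in the order 60, 10 and 30 days. Summed over each group's libraries, Krt18 was 161-fold above control at 10 days, with an exact 95% counting interval of 84.8 to 353. The corresponding ratio was 233 (123 to 511) at 30 days and 62.8 (32.8 to 138) at 60 days. For Krt8 the same ratios were 46.0 (33.3 to 65.5), 32.0 (23.1 to 45.7) and 7.78 (5.50 to 11.3). These intervals cover counting error alone and leave out the spread between libraries, such as 1.34 to 11.6 CPM for Krt18 at 60 days. PCR copies of a fragment count as separate fragments, which the intervals do not allow for either. The fitted log2 fold change of Krt18 was 7.29 ± 0.91 (SE), 7.80 ± 0.90 and 5.85 ± 0.98 at the 3 times, and it depends on the prior count because the control counts are so low.

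**Figure D1:**
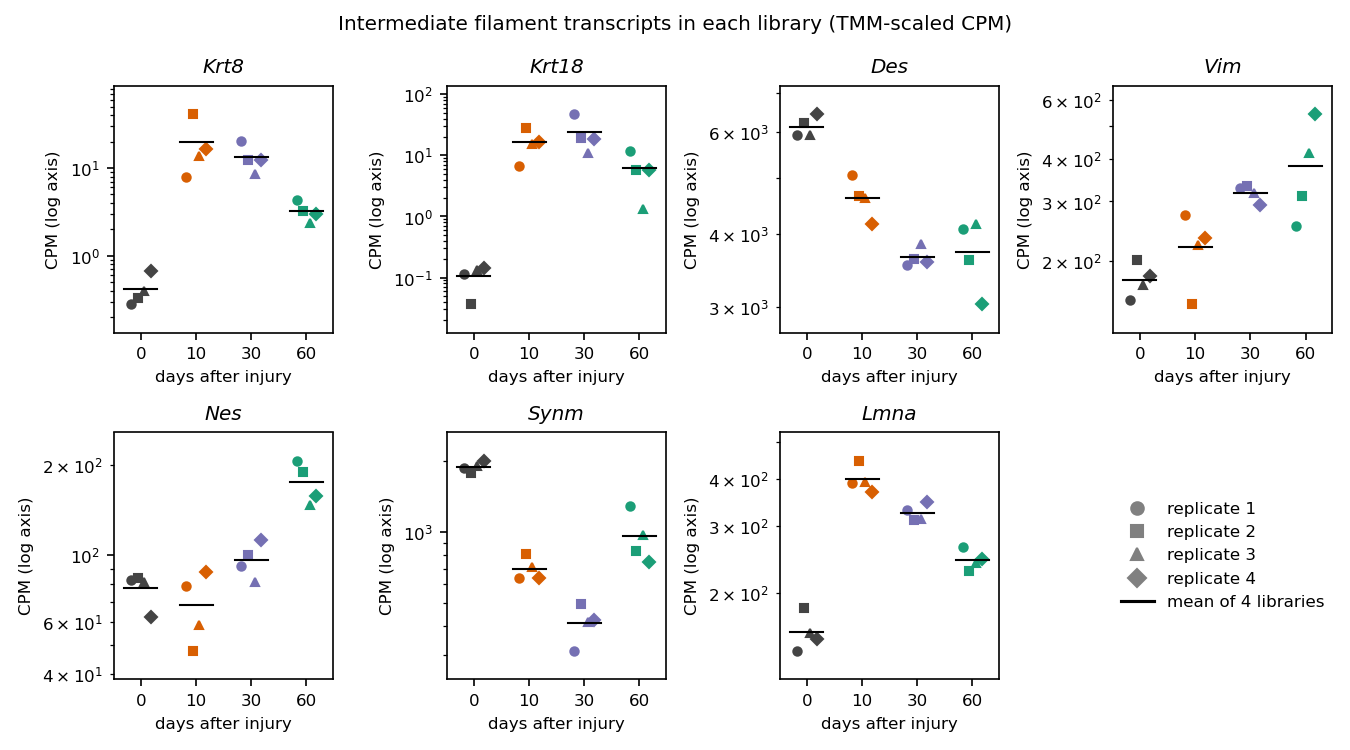
Level of each intermediate filament gene in each of the 16 libraries (y axis, TMM-scaled CPM on a log axis that differs between panels) by days after injury (x axis, 0 days unoperated). Each symbol is 1 library and each line the mean of 4. Krt8 and Krt18 lay above all controls at every later time, Des and Synm lay below, and Lmna was highest at 10 days and lower at each later time.

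The fragments of Krt8 per fragment of Krt18 in the same library do not depend on scaling. This ratio was 1.12 ± 0.238 (SD, n = 4) at 10 days and 0.635 ± 0.150 at 30 days, and the ranges of 0.886 to 1.43 and 0.434 to 0.796 did not overlap. At 60 days it was 0.369, 0.553, 1.74 and 0.531, with replicate 3, the library with the fewest Krt18 fragments, apart from the others. At 0 days it ran from 2.5 to 9, but on 1 to 3 fragments of Krt18 per library. Replicate 2 of the 10-day group, with the highest Krt8, and replicate 1 of the 30-day group, with the highest Krt18, therefore differed in which keratin had more fragments, a count not corrected for transcript length. Krt8 and Krt18 lie near each other on chromosome 7 with 1 annotated gene between them. The GRCr8 annotation lists 6 pseudogenes of Krt18 and 1 of Krt8, none of them in the count table. How reads shared with such copies were counted is not given in the sources used here, so the keratin levels are uncertain to that extent.

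**Figure D2:**
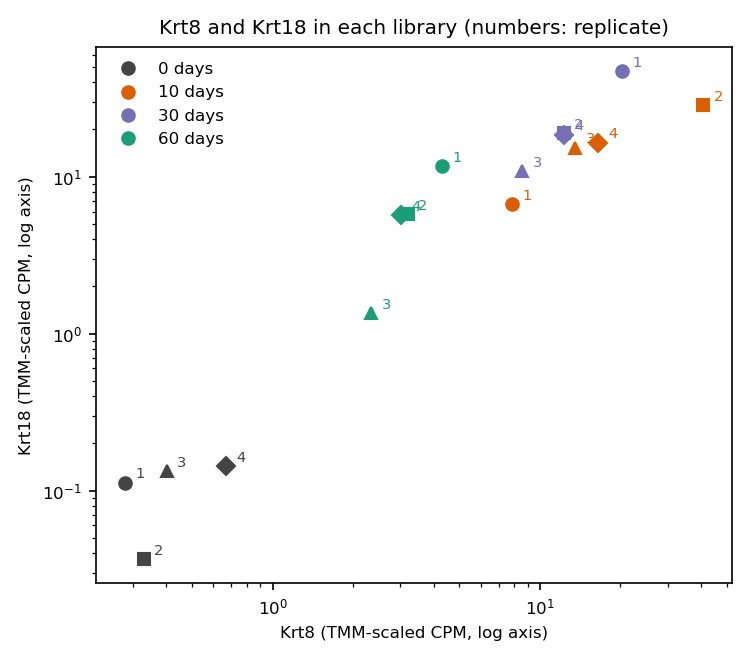
Krt18 against Krt8 in each library (both axes TMM-scaled CPM, log axes). Points are libraries, coloured by time and numbered by replicate. The 4 control libraries lie at the lower left, and among injured libraries replicate 3 at 60 days has the lowest Krt18, 1.34 CPM.

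The table holds 43 further keratin symbols, and 14 of these were at 0 throughout while 4 passed the filter. Their summed level was 3.22 to 5.66 CPM over all 16 libraries. Krt8 and Krt18 made up 7.63 to 17.7% of all keratin fragments in the control libraries, and 81.9 to 94.8%, 84.1 to 95.0% and 43.8 to 78.8% in the 10-, 30- and 60-day libraries. Krt80, a keratin of differentiating epithelia named here after its values were seen, was the only tested gene of a list of other keratins to be called at 10 days. It rose from a mean of 0.248 CPM to 1.10 CPM (log2 fold change 2.17 ± 0.50, adjusted p 0.00124 by edgeR's quasi-likelihood test), and its highest library was also replicate 2 of the 10-day group. Krt80 had 33, 64, 20 and 22 fragments at 10 days beside 7, 5, 5 and 4 at 0 days. It passed the filter mainly through the 10-day libraries where it was high, so its call is given as a description. That list held 3 of the 4 keratins that passed the filter and left out Krt2. The mean of Krt2 moved the other way at 10 days, with 1.14, 0.540, 0.609 and 1.75 CPM in the order of time. Whether Krt2 was called is not given here.

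Epithelial marker genes were mixed in direction. Of 12 such markers, 11 were in the table, none of them at 0 in every library, and their summed level was 17.9 to 19.5 CPM in controls, and 9.07 to 11.8, 12.7 to 14.9 and 10.8 to 16.8 CPM at 10, 30 and 60 days. Most of this was Esrp2, a splicing regulator, at 15.8 CPM on average at 0 days and 8.76 at 10 days. Epcam, the epithelial adhesion molecule, did not exceed 0.394 CPM in any library. Of all tested genes 33.3%, 33.7% and 29.9% were called higher at 10, 30 and 60 days, and 29.4%, 30.9% and 29.1% lower. These shares are the background of the marker counts here and below. Of the 3 markers tested, Cdh1, Esrp2 and Ocln, 2 fell and none rose at 10 and at 30 days, and 1 rose and 1 fell at 60 days, but with library totals Esrp2 was not called and Ocln, which encodes occludin of tight junctions, was called higher at all 3 times (0.67, 0.82 and 1.15). Among markers too low to be tested, Cldn4, a claudin named after its values were seen, had 3, 25, 13 and 6 fragments in all at 0, 10, 30 and 60 days, and each 10-day library, at 0.164 to 0.246 CPM, lay above each control, at up to 0.112 CPM. Elf3, an epithelial transcription factor named in the same way, had 1, 14, 14 and 9 fragments. Most of the untested markers went the other way from 0 to 10 days. Krt19 had 12 and 6 fragments, Krt14 4 and 1, Krt5 3 and 0, Cldn7 4 and 1, and Esrp1 3 and 0, while Epcam had 20 and 41. The part of epithelial cells in the keratin levels was not tested. The summed level of 4 mesothelial markers did not exceed 1.03 CPM.

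Most markers of immature or denervated fibres were higher after injury, as the keratins were. Of 10 such genes, among them Myog, a myogenic transcription factor, and Chrna1, the acetylcholine receptor alpha subunit, 8 were in the table and tested. At 10 days 7 were called higher and 1 lower, at 30 days 7 higher and none lower, and at 60 days 6 higher and 1 lower. Of all tested genes, 33.3%, 33.7% and 29.9% were called higher at these times, and 29.4%, 30.9% and 29.1% lower. The summed level of the 8 markers was 351 to 399 CPM at 0 days and 2712 to 3007 CPM at 10 days. It was 5061, 2653, 2533 and 4033 CPM in replicates 1 to 4 at 30 days, and 2994, 1414, 1284 and 1801 CPM at 60 days. Myh3, a myosin heavy chain gene, had means of 120, 423, 1678 and 1533 CPM in the order of time. It made up most of the mean sum at 60 days, 1873 CPM, and unlike the keratins stayed near its 30-day level. Myh8, another such gene, did not rise, with means of 137, 72.8, 131 and 65.1 CPM. At 30 and 60 days replicate 1 had the highest sum and the highest Krt18, and replicate 3 the lowest of both. At 10 days the sums in replicates 1 to 4 were 2786, 3007, 2744 and 2712 CPM, so replicate 1, with the lowest Krt8 and Krt18 of its group, did not have the lowest sum. The part of these fibres in the keratin levels was not tested.

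Desmin transcripts were lower after injury on the TMM scale. Des was at 5939, 6214, 5939.7 and 6438 CPM at 0 days and at 5063, 4659, 4610.5 and 4165 CPM at 10 days. At 30 days it was at 3545, 3630.3, 3854 and 3578 CPM, and at 60 days at 4083, 3611, 4159 and 3029 CPM. Each injured group lay wholly below the controls, and the 30- and 60-day groups lay below the 10-day group but overlapped each other. The log2 fold change against 0 days was -0.41 ± 0.10 (SE) at 10 days, where scaling by library totals turned it to 0.25 with all 10-day libraries above the controls, so its direction there rests on the scaling. It was -0.75 ± 0.10 at 30 days and -0.72 ± 0.10 at 60 days, and -0.26 and -0.32 with library totals. Other genes of the mature fibre were low in the same groups: of 12 such markers, all tested, 11, 9 and 7 were called lower and 1, 1 and 2 higher at 10, 30 and 60 days. Of all tested genes, 29.4%, 30.9% and 29.1% were called lower at these times, and 33.3%, 33.7% and 29.9% higher. The median log2 fold change of the 12 markers was -1.85, -0.97 and -0.69, and -1.19, -0.48 and -0.29 with library totals. Their summed level was 247190.0 to 269882 CPM in controls, and 71601 to 76816, 117476 to 166467 and 146391 to 168410.0 CPM at the 3 later times, so it was lowest at 10 days, where Des was not. Their part in the level of Des was not tested.

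Synemin had the most negative log2 fold change of the 7 genes at each time against controls, also with library totals. Synm was at 1870.4, 1785, 1911 and 2002 CPM at 0 days, at 639, 804, 708 and 641 at 10 days and at 315, 495, 416 and 424 at 30 days. At 60 days it was at 1293, 834, 972 and 748 CPM, above every 30-day library but below every control. Relative to control the log2 fold change was -1.44 ± 0.16 (SE), -2.20 ± 0.16 and -0.98 ± 0.16 at 10, 30 and 60 days, and it stayed negative with library totals (-0.78, -1.71 and -0.58). From 30 to 60 days it was 1.22 ± 0.16. The mature fibre markers given above for Des were likewise low after injury, with their lowest sums at 10 days rather than at 30, and their part in the level of Synm was not tested. Set against desmin, its copolymer partner, in the same library, there were 30.9 ± 1.50 (SD, n = 4) Synm fragments per 100 Des fragments in control muscle, and 15.2 ± 1.91, 11.3 ± 1.99 and 25.7 ± 4.03 at the 3 later times. Replicate 1 at 60 days, at 31.7, lay within the control range of 28.7 to 32.2.

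**Figure D3:**
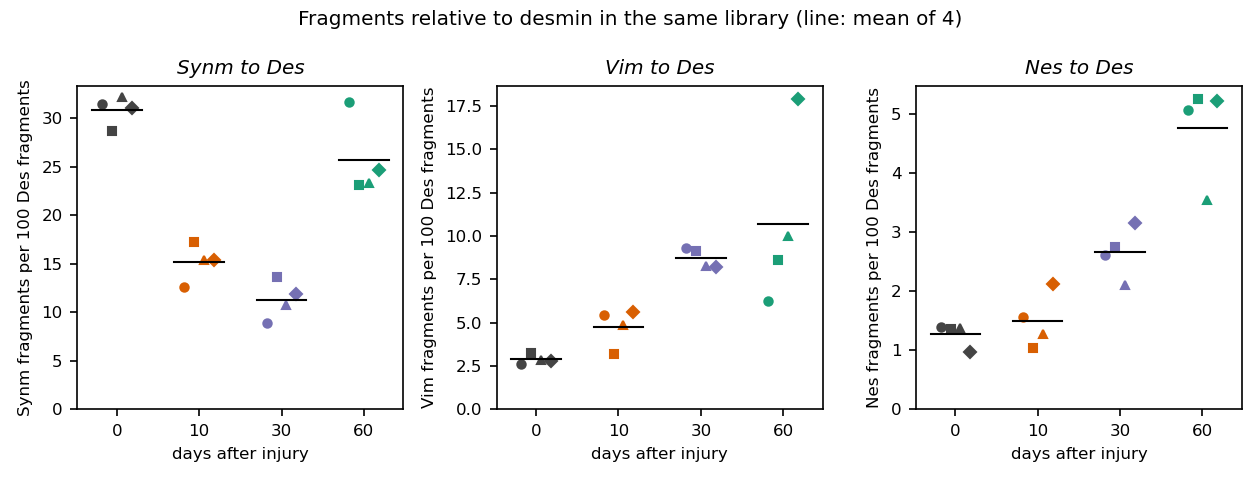
Fragments of Synm, Vim and Nes per 100 fragments of Des in the same library (y axes) by days after injury (x axes), a measure that scaling does not alter. Symbols are libraries and lines the mean of 4. The Synm ratio had its lowest mean, 11.3, at 30 days, and the means for Vim and Nes were highest at 60 days, at 10.7 and 4.76.

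Vimentin was higher late after injury. Vim was at 154, 201, 169.6 and 180.3 CPM at 0 days and at 274, 149, 223 and 234 CPM at 10 days, where replicate 2 lay below every control library and the others above. At 30 days it was at 329, 332, 318 and 293 CPM, and at 60 days at 254, 311, 416 and 542 CPM. Both later groups lay above the controls, and the 60-day group was the most spread. Against control its log2 fold change was 0.32 ± 0.20 (SE), 0.85 ± 0.20 and 1.11 ± 0.20 at the 3 times in turn, and 0.98, 1.35 and 1.54 with library totals, under which the 10-day group also lay above the controls. Per 100 Des fragments Vim stood at 2.87 ± 0.268 (SD, n = 4) at 0 days and reached 8.72 ± 0.584 at 30 days and 10.7 ± 5.05 at 60 days.

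Fibroblast genes rose after injury and were low or high in some of the same libraries as Vim. All 9 markers of fibroblasts were in the table, Col1a2 was listed at 0 in every library, and of the 8 tested genes 6, 8 and 8 were called higher at 10, 30 and 60 days, with none lower. Their summed level was 495 to 1026 CPM at 0 days and 1553 to 2542 CPM at 30 days. It was 2942, 977, 1538 and 2499.7 CPM in replicates 1 to 4 at 10 days and 1685, 1403, 2444 and 3005 CPM at 60 days. The library with the lowest Vim at 10 days, replicate 2, thus had the lowest fibroblast sum of its group, and the library with the highest Vim at 60 days, replicate 4, the highest. Of 9 macrophage markers, all tested, 8 were called higher at 10 days and 9 at 30 and at 60 days, and their sum was 39.6 to 62.9 CPM at 0 days and 142 to 263 CPM at 60 days. Beside both lists, 33.3%, 33.7% and 29.9% of all tested genes were called higher at 10, 30 and 60 days. The part of fibroblasts and macrophages in the vimentin level was not tested.

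Nestin was highest at 60 days. Nes was at 82.7, 84.1, 81.5 and 62.4 CPM at 0 days, at 79.1, 48.0, 58.3 and 88.2 at 10 days and at 92.2, 99.9, 81.2 and 112 at 30 days, and these groups overlapped from one to the next on the TMM scale. At 60 days it was at 206, 189.7, 147 and 158 CPM, above all 12 earlier libraries. The log2 fold change against 0 days was -0.18 ± 0.17 (SE) at 10 days, which became 0.48 with library totals, 0.31 ± 0.17 at 30 days and 1.17 ± 0.17 at 60 days. With library totals the 30-day value was 0.81 and all 30-day libraries lay above the controls, so the overlap at 30 days rests on the scaling. Nes at 30 days, not called against controls, was called with library totals, with upper-quartile factors (0.44) and with only the 2 groups in the fit (0.31). From 30 to 60 days it was 0.86 ± 0.17. Nes per 100 Des fragments was 1.27 ± 0.202 (SD, n = 4), 1.49 ± 0.469, 2.65 ± 0.428 and 4.76 ± 0.826 in the order of time. The summed level of 9 Schwann cell markers was 65.7 to 102 CPM in controls, and 32.5 to 57.2, 58.2 to 100.3 and 112 to 242 CPM at 10, 30 and 60 days, so it was likewise highest at 60 days and lowest in replicate 2 at 10 days. At 60 days the largest Nes values were in replicates 1 and 2 and the largest Schwann sums in replicates 3 and 4. The part of Schwann cells in the nestin level was not tested.

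Lamin A/C was the only one of the 7 genes whose 4 groups did not overlap at all. The share of all tested genes with 4 such separate groups was not counted. Lmna was at 141, 182, 157 and 152 CPM at 0 days, at 390.2, 445, 392 and 369.8 at 10 days, at 331, 311, 314 and 346 at 30 days and at 264, 229, 240.4 and 245 at 60 days. The groups stood in the order 0, 60, 30 and 10 days from low to high. Lmna had log2 fold changes against 0 days of 1.34 ± 0.09 (SE), 1.04 ± 0.08 and 0.63 ± 0.08 at 10, 30 and 60 days, and 1.99, 1.54 and 1.04 with library totals. From 10 to 30 days it was -0.29 ± 0.08 and from 30 to 60 days -0.41 ± 0.08. Lmnb1, which encodes lamin B1 and was named after its values were seen, was not called at any time against controls, with log2 fold changes of 0.06, -0.06 and -0.22. With library totals these were 0.72, 0.43 and 0.19, the first 2 of them called, so its flat course rests on the scaling.

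**Figure D4:**
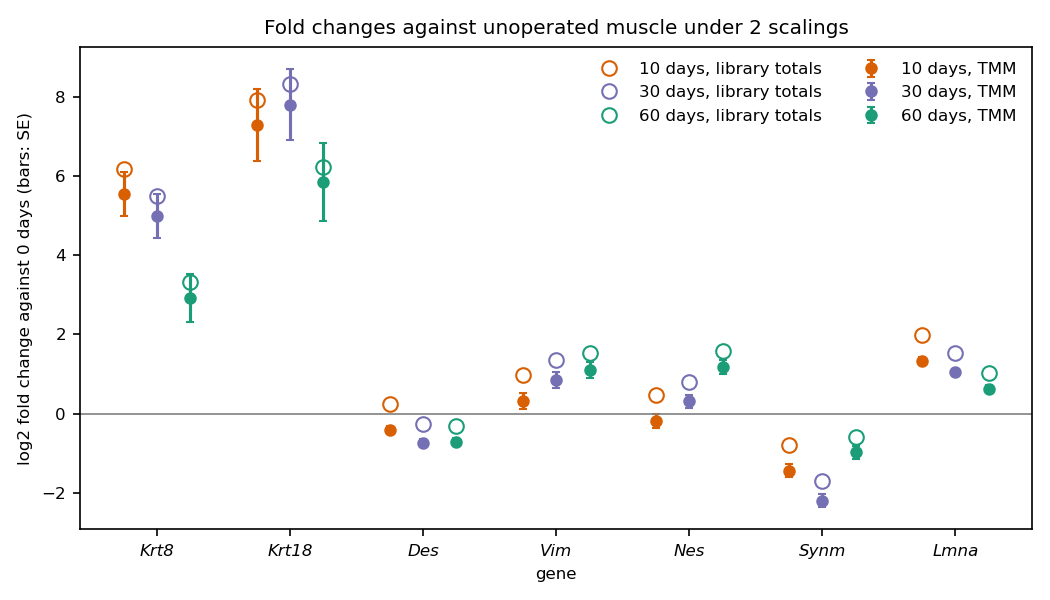
Log2 fold change of the 7 genes against 0 days (y axis) at 10, 30 and 60 days, with TMM scaling (filled points, bars are SE) and with library totals (open points). Library totals raised each value, and at 10 days Des moved from -0.41 to 0.25 and Nes from -0.18 to 0.48.

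A gene was called where its adjusted p was under 0.05, and the share of all tested genes called gives the background for the 7 genes, from which nothing is read because the genes were picked from these changes. At 10 against 0 days 3 of the 7 were called higher and 2 lower, with 33.3% and 29.4% of all genes called in these directions, and 5 of 7 had ranges that did not overlap, with 59.0% of all genes. At 30 against 0 days the counts were 4, 2 and 6, with 33.7%, 30.9% and 60.2% of all genes. At 60 against 0 days they were 5, 2 and 7, with 29.9%, 29.1% and 50.0%. These 3 comparisons share the control libraries. From 10 to 30 days they were 2, 3 and 4, with 23.0%, 24.3% and 43.8%, from 30 to 60 days 2, 3 and 4, with 10.3%, 12.4% and 20.1%, and from 10 to 60 days 3, 4 and 4, with 29.1%, 31.9% and 51.2%. The median log2 fold change of the 7 genes against 0 days was 0.32, 0.85 and 1.11 at 10, 30 and 60 days, beside 0.06, 0.05 and 0.04 for all tested genes. Several calls, most of them between injured groups, rested on single libraries or settings. The Krt18 call from 30 to 60 days was lost without replicate 1 of the 30-day group (log2 fold change -1.95, and -1.39 without it) and with only the 2 groups in the fit (-1.95). The Krt18 call from 10 to 60 days (-1.44) was lost without replicate 2 of the 10-day group (-1.05) or without replicate 2, 3 or 4 of the 60-day group (-1.41, -1.12 and -1.38). The Des call from 10 to 60 days (-0.31) was lost without replicate 4 of the 60-day group (-0.21), with upper-quartile factors (-0.23) and with only the 2 groups (-0.31). The Synm call from 10 to 60 days (0.46) was lost without replicate 1 of the 60-day group (0.29) and with library totals (0.20). Vim at 10 against 0 days was not called, and it was without replicate 2 of the 10-day group (0.47) and with library totals (0.98). Its call from 10 to 30 days (0.53) was lost on leaving out replicate 2, 3 or 4 of the 10-day group or replicate 1, 2 or 3 of the 30-day group, with values of 0.38 to 0.56, and with library totals (0.37), no filter (0.52) and the title letter (0.44). The Nes call from 10 to 30 days (0.49) was lost on leaving out replicate 2 or 3 of the 10-day group or replicate 2 or 4 of the 30-day group, with values of 0.36 to 0.48, and with library totals (0.33) and only the 2 groups (0.49). The Krt8 difference from 10 to 30 days, -0.55 with overlapping ranges, was 0.08 without replicate 2 of the 10-day group. The Krt8 value from 10 to 60 days moved from -2.60 to -1.97 without the same library.

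Replicate 2 of the 10-day group combined the highest Krt8 and Krt18 of its group with the lowest Vim and Nes. It also had the lowest sums of fibroblast, Schwann, endothelial and mural markers in its group, at 977, 32.5, 202 and 162 CPM, while its sum of immature fibre markers, 3007 CPM, was the highest. Whether its tissue make-up bears on the keratin level was not tested.

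The genes most like a member were those with the smallest root mean square difference of log2 CPM over the 16 libraries, each gene centred on its own mean, among 8223 genes with a mean of at least 5 CPM. For Krt8 the closest was Gadd45a, a growth arrest and DNA damage gene, at 0.41, with mean levels of 24.3, 931, 759 and 155 CPM at 0, 10, 30 and 60 days. It was followed by Adap2, Adam19, Sirpa and Myog, at 0.54 to 0.56. For Krt18 the closest were Klk1c7 at 0.84, Ankrd1 at 0.92, Tmem158 at 0.93, Krt8 itself at 0.98 and Cdkn1a, a cell cycle inhibitor, at 1.00. Krt18 in turn ranked 38th for Krt8. Vim was closest to Anxa1 and Anxa2, encoding membrane-binding annexins, at 0.13 and 0.14, and then to S100a11, Olfml1 and Rarres2. Des was closest to Cul2 at 0.10, Nes to Ngfrap1 at 0.25 and Synm to Lrrc20 at 0.26. The centred log2 levels of low genes such as Krt18 carry more counting noise, so these distances are not comparable between members.

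Among genes that work with intermediate filaments, 6 lists were examined, and Lmnb1 and Lmnb2 stood in both the other filament and the lamina lists. Counted once each, the lists held 113 genes, of which 86 were tested. At 10 days 32 were called higher and 23 lower, at 30 days 24 and 25, and at 60 days 25 and 20. The median log2 fold change was 0.14, 0.04 and 0.07, close to that of all genes, and 0.80, 0.53 and 0.48 under library totals. The calls under that scaling were 66 higher and 7 lower, 53 and 8, and 54 and 7, so the balance of directions over these lists rests on the scaling.

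Other filament genes were called in 1 direction. Of 10 tested, 6, 6 and 4 rose at 10, 30 and 60 days, and none fell, beside the 33.3%, 33.7% and 29.9% of all tested genes called higher and the 29.4%, 30.9% and 29.1% called lower at these times, which are also the background of the lists below. Their median log2 fold change was 1.34, 1.85 and 0.56. Nefm, the medium neurofilament chain of neurons, went from a mean of 0.697 CPM at 0 days to 6.62 at 10 days (log2 fold change 3.26 ± 0.60, adjusted p 0.000199), 3.85 at 30 days (2.48 ± 0.61, adjusted p 0.00216) and 2.52 at 60 days (1.90 ± 0.63, adjusted p 0.0169). The last call was lost without replicate 4 of the 60-day group, where the log2 fold change was 1.29, and with limma-voom, where it was 1.53. Bfsp2 and Bfsp1, which encode the beaded filament proteins of the eye lens, rose by 2.89 ± 0.45 (adjusted p 3.56e-05) and 1.71 ± 0.28 (adjusted p 4.4e-05) on the log2 scale at 10 days, from means of 0.408 and 0.864 CPM. Bfsp2 had 5, 18, 9 and 6 fragments in the controls and passed the filter mainly through injured libraries. Genes this low in controls could hardly be called lower, so the absence of falls is in part set by the filter. The list was also chosen with these results known, so nothing is read from its counts. Iffo1, a nuclear protein with an intermediate filament domain, had mean levels of 21.1, 57.4, 75.8 and 42.4 CPM in the order of time, and was called higher at each time (log2 fold change 1.44, 1.84 and 1.00, adjusted p 3.38e-08, 3.93e-09 and 3.89e-06).

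Genes that tie filaments to membranes and Z-discs were called in both directions. Of 21 tested, 5 rose and 7 fell at 10 days, 5 and 7 at 30 days, and 6 and 3 at 60 days. Dmd, encoding dystrophin of the costamere, rose from 31.6 to 82.1 CPM at 10 days (1.38 ± 0.25, adjusted p 0.000152) and was still called at 30 and 60 days (1.28 and 1.02). Its 60-day libraries were at 110, 46.7, 47.7 and 51.2 CPM, beside 42.0 CPM in the highest control, so the size of that rise leans on replicate 1. Jup, encoding plakoglobin of desmosomes, rose by 0.91 ± 0.11 at 10 days (adjusted p 1.83e-06). Plec, encoding plectin, which anchors desmin to Z-discs and membranes, fell at 30 days (-1.19 ± 0.13, adjusted p 1.25e-06) and at 60 days (-0.98 ± 0.13, adjusted p 1.27e-05), with the same direction and calls under library totals. Ldb3, a Z-disc protein, fell from 4267 to 588 CPM at 10 days (-2.86 ± 0.27, adjusted p 1.74e-07). Ankrd2, a stretch-responsive ankyrin repeat protein, fell from 98.4 to 8.05 CPM at the same time (-3.60 ± 0.37, adjusted p 4.98e-07). Its log2 fold change was -1.13 at 30 days, and that call was lost with library totals, as was that of Ldb3.

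Chaperones and degradation factors that handle desmin also split. Of 20 tested, 9 rose and 6 fell at 10 days, 3 and 5 at 30 days, and 6 and 4 at 60 days. Hspb8, a small heat shock protein of the chaperone-assisted autophagy pathway, rose from 596 CPM to 1755 at 10 days (1.56 ± 0.16, adjusted p 2.83e-07), and Hspb7, another small heat shock protein, from 681 to 1383 (1.02 ± 0.16, adjusted p 4.27e-05). Hspb6 fell from 2212 to 428 CPM at 10 days (-2.37 ± 0.27, adjusted p 1.63e-06). Cryab, the alphaB-crystallin that binds desmin, fell by 0.68 ± 0.11 on the log2 scale at 10 days (adjusted p 5.97e-05), but its value was -0.02 with library totals. By 60 days, a time given after its values were seen, it lay above every control, at 3038 CPM beside 2004 (0.60 ± 0.11, adjusted p 0.000268). Fbxo32, an atrophy-related ubiquitin ligase, rose at 10 days (1.79 ± 0.23, adjusted p 7.24e-06) and fell at 30 days (-1.48 ± 0.24, adjusted p 6.08e-05) and 60 days (-1.51 ± 0.24, adjusted p 7.51e-05). Trim32, a ligase that acts on desmin, fell at 60 days (-0.55 ± 0.09, adjusted p 9.7e-05), and the call was lost with library totals (-0.14).

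Among partners and processing enzymes of the lamina, 5 of 18 tested genes rose and 6 fell at 10 days, 3 and 9 at 30 days, and 3 and 10 at 60 days, while Lmna lay above the controls throughout. Nup93, a nuclear pore protein, rose by 1.20 ± 0.12 at 10 days (adjusted p 1.89e-07). Zmpste24, the protease that matures prelamin A, rose from 20.7 to 30.0 CPM (0.53 ± 0.11, adjusted p 0.000385). Banf1, a chromatin protein that binds lamins, fell from 296 to 158 CPM at 10 days (-0.90 ± 0.06, adjusted p 4.86e-09), and Lbr, the lamin B receptor, from 14.8 to 6.82 CPM at 30 days (-1.12 ± 0.11, adjusted p 2.07e-07). Both kept their direction and call with library totals, at -0.24 and -0.63.

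Kinases and adaptors that act on filaments had 6 genes called higher and 4 lower of 15 tested at 10 days, 7 and 4 at 30 days, and 6 and 3 at 60 days. Cdk5r1, the activator of a kinase that phosphorylates nestin and vimentin, rose from 0.405 to 2.09 CPM at 10 days (2.35 ± 0.40, adjusted p 6.87e-05). Pak1, a kinase of vimentin and desmin, rose from 10.2 to 29.0 CPM at 30 days (1.51 ± 0.15, adjusted p 3.92e-07) and was at 28.9 CPM at 60 days. Tchp, encoding trichoplein, a keratin 8 and 18 binding protein, rose by 0.85 ± 0.10 at 10 days (adjusted p 1.31e-06). Mapk14, the p38 alpha kinase, fell from 177 to 104 CPM at 10 days (-0.77 ± 0.08, adjusted p 3.48e-07), a call that was lost with library totals (-0.11).

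**Figure D5:**
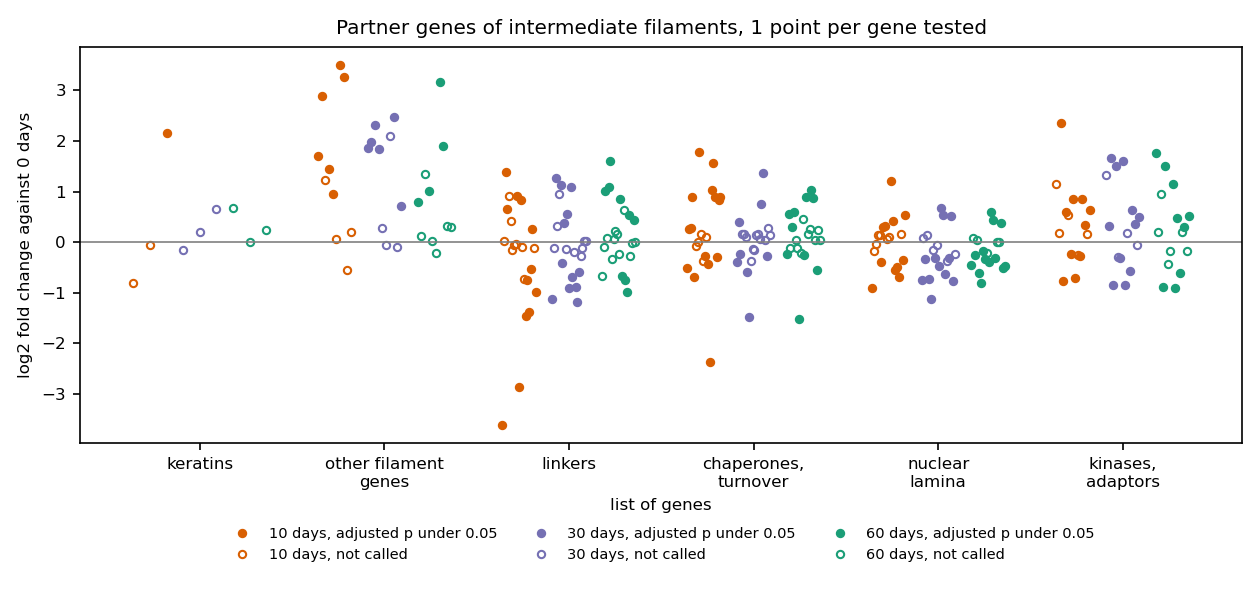
Log2 fold change against 0 days (y axis) of the tested genes of the 6 partner lists (x axis), 1 point per gene and time. Filled points have an adjusted p under 0.05. Called genes of the other filament list lie above 0 at all 3 times, and the other 4 lists with more than 3 tested genes hold called genes on both sides.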

How the data were processed

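TruSeq kits gave polyA-selected libraries of 16 supraspinatus samples, per the labels. The authors deposited expected counts, raw fragments per gene, in 1 table. The submitters' processing notes name bcl2fastq 1.8.4, FastQC, TopHat2 2.0.9, Bowtie2 2.1.0.0, Cufflinks, Cuffdiff 2.1.1 and the build rn5. The annotation and strandedness are not given in the sources used here. Values were whole for all but 233 of 17147 genes and were rounded, and 0 columns were left unused.

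Genes were filtered with filterByExpr by group and scaled by TMM. A single model without covariates (edgeR 4.0.16, quasi-likelihood, robust) held all 16 libraries, and F tests compared each pair of groups, with Benjamini-Hochberg adjustment over 11658 genes. Python 3.11.15 and R 4.3.3 were used, and the fit was tested on simulated data. Alternatives were RLE and upper-quartile factors, library totals, DESeq2 1.42.0, limma-voom 3.58.1, no filter, a mean of at least 1 CPM, no robust estimation, only the 2 groups compared, a replicate block, the title letter (L or R, of unstated meaning), and fits that leave out 1 of the libraries.

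The members and all gene lists were chosen with earlier results of these data known. From each partner list the text names, per time against 0 days, at most the 3 called genes with the largest rise and the 3 with the largest fall, with a mean of at least 1 CPM, and says where a gene lies outside this rule. The fits of members give no p-value. Promoters of 7 of 7 members were matched by symbol. The comparison of Lmna with its most similar genes is not reported here.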

Additional observations from a re-analysis of the deposited data

Results flagged for a closer look

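Nes in replicate 4 at 0 days was at 62.4 CPM, apart from the other 3 control libraries at 81.5 to 84.1 CPM: its gap to the nearest of them took 0.878 of the group's range, above Dixon's 95% limit for 4 samples. It was the only one among 28 groups of member levels checked, and chance marks about 1 in 20 groups.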

How the results depend on the processing

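With DESeq2, RLE factors, limma-voom, no filter, a mean of at least 1 CPM, no robust estimation, the replicate block and the title letter, all 24 counts of calls stayed within 1.5 times. With library totals, partner genes called higher went from 32 to 66 at 10 days, 24 to 53 at 30 days and 25 to 54 at 60 days, and those called lower from 23 to 7, 25 to 8 and 20 to 7. From 10 to 30 days, members called went from 5 to 3 and partner genes higher from 20 to 10, and from 30 to 60 days partner genes higher went from 8 to 5. The log2 fold change changed sign, from a call, for Des at 10 days (0.25), Atad1 at 10 (0.15) and 30 days (0.11), Hspa8 at 60 days (0.15), and Sun1 (0.11) and Rock2 (0.38) at 10 days. With only the 2 groups in the fit, calls over all genes from 30 to 60 days went from 2636 to 1530 and partner genes higher to 5. Leaving out each library in turn, members called from 10 to 30 days ranged from 3 to 5, with 3 without replicate 2 or 3 at 10 days or replicate 2 at 30 days. From 30 to 60 days, partner genes higher ranged from 5 to 10 and lower from 4 to 12. The cause of these shifts was not tested. The column numbers share only a number between groups: same-numbered libraries had deviations correlated at 0.0013 on average (-0.237 to 0.216, 24 pairs), and 4 of 16 libraries correlated best with their own number. The replicate block gave 7244 genes called at 10 days beside 7304 without it. Depth limits Krt18 at 0 days most, with 1 to 3 fragments a library.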
